A study of Mus musculus with 5 samples.

Results

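Non-resident C1q-high aortic macrophages are cells of the atherosclerotic aortic arch with many transcripts of complement C1q but few of the genes that mark resident or lipid-associated macrophages. A cell was taken as a member where C1qa, C1qb and C1qc together gave at least 30 of every 10000 of its RNA molecules. In the same cell the resident genes F13a1, Cbr2, Folr2, Lyve1, Mrc1 and Pf4 together had to stay under 15 per 10000, and the lipid-associated genes Trem2, Gpnmb, Spp1 and Fabp5 under 10 per 10000. The rule found 126 members among 1656 cells in which mitochondrial genes gave at most 25% of molecules, of 1743 cells deposited. Members were thus chosen by the measured levels of these C1q, resident and lipid-associated genes. For that reason every comparison of members with other cells below is a description, without a test.

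The cells were live CD45+ cells (CD45 marks cells of blood origin) sorted from the aortic arch of female mice and captured on a BD Rhapsody cartridge, which tags each RNA molecule with its cell and with a molecular identifier. One group of mice was wild-type C57BL/6J, and the other carried the Saa3 allele C57BL/6N-Saa3tm1.1(KOMP)Vlcg/MbpMmucd, a targeted disruption of the gene of serum amyloid A3. Mice of both groups, called littermates in the design text although the strain labels name different substrains, were 12 weeks old when injected with an AAV8 vector carrying mPCSK9 D377Y under the liver-directed hAAT promoter. They then ate a Western diet for 18 weeks, so neither pool is a healthy artery. The 2 genotypes were told apart by sample tags, 1 pool each, and the number of mice per pool is not stated in the labels. With 1 pool per genotype there is no measure of the spread between animals. Pairs of values below give the pool labelled wild-type first and the pool labelled Saa3-/- second.

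C1q is the recognition molecule of the classical complement pathway, built from the A, B and C chains, and it binds immune complexes and dying cells. Unlike most complement proteins, which the liver makes, C1q comes largely from macrophages and dendritic cells. In arteries, macrophages of the outer wall that persist from early life carry Lyve1, Folr2, F13a1 and Cbr2, whereas foamy macrophages of the plaque carry Trem2 and Gpnmb. Macrophages outside both patterns include cells that arise from blood monocytes and present antigen on MHC class II.

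The pools kept 833 and 823 cells with a median of 6415 and 4698 molecules per cell, and they shared 0 cell barcodes. Summed over all kept cells, the targeted gene was not lower under the Saa3-/- label, but without the 2 highest cells of each pool it was. Saa3, at chr7:46711998-46715700 on the minus strand (GRCm38), gave 1079 molecules (148 CPM, molecules per 1000000 molecules) under the wild-type label and 1268 (242 CPM) under the Saa3-/- label. In the latter pool 2 cells held 799 and 325 of these molecules and the other cells 144 (27.5 CPM), against 697 (95.6 CPM) in the former without its 2 highest cells. Which part of the transcript the allele removes is not given in the labels, so the pools are named by their labels throughout and every direction between them rests on those labels.

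The members numbered 74 and 52. They made up 8.88% (exact 95% binomial interval 7.04 to 11.0) and 6.32% (4.75 to 8.20) of the kept cells, and 31.4% (25.5 to 37.7) and 32.7% (25.5 to 40.6) of all 236 and 159 C1q-high cells. These and all later intervals cover counting error only. Resident-type macrophages, which pass the same C1q and lipid limits but reach the resident limit, numbered 130 and 65, or 15.6% (13.2 to 18.3) and 7.90% (6.15 to 9.96) of kept cells. Lipid-laden C1q-high cells numbered 18 and 31, and cells high in both sums 14 and 11. Of C1q-high cells the resident-type ones were 55.1% (48.5 to 61.5) and 40.9% (33.2 to 48.9). Of kept cells both classes thus had the lower share under the Saa3-/- label, while of C1q-high cells only the resident-type share did. No statement on the animals follows from 1 pool each.

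The members, like C1q-high cells as a whole, held more molecules per cell than the kept cells at large. They held 859327 and 407677 molecules in all, with a median of 9308.5 and 7308.5 per cell, a range of 1701 to 39189 and of 1678 to 27108, and a median of 3138.5 and 2624.5 genes. Mitochondrial genes gave a median of 5.07% and 5.05% of their molecules. All C1q-high cells had a median of 10072 and 6883 molecules per cell. Resident-type cells had 10486 and 6497, and lipid-laden cells 10998.5 and 10266.

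**Figure D1:**
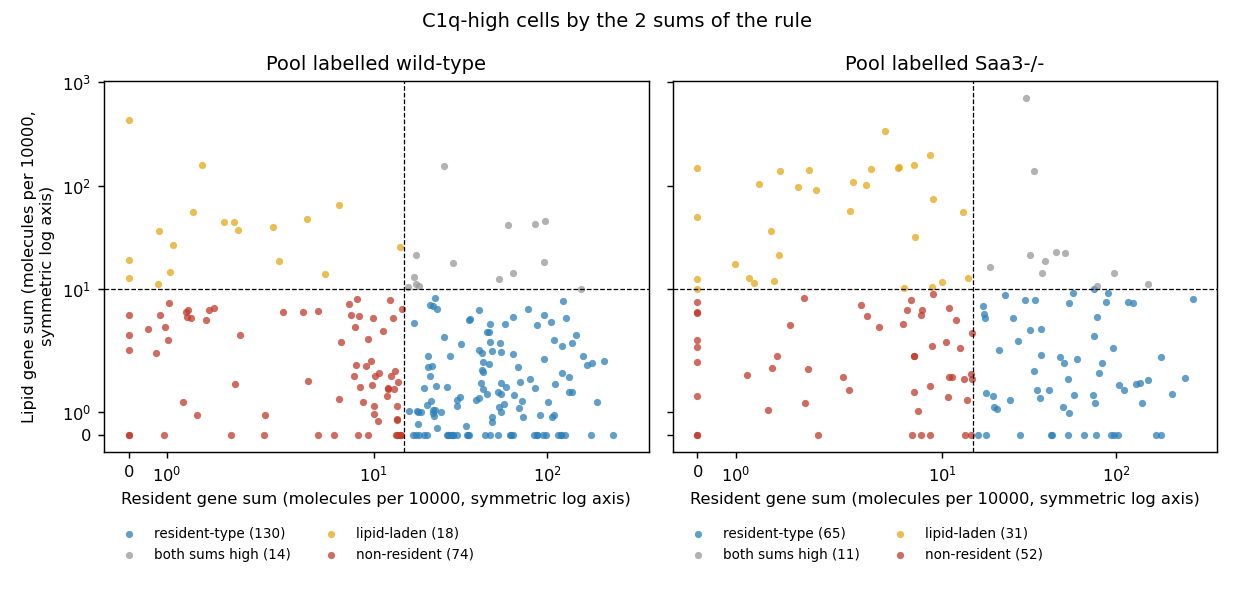
Each point is 1 C1q-high cell of a pool, placed by its resident gene sum (x axis) and lipid gene sum (y axis), both in molecules per 10000 on symmetric log axes, and coloured by class. The 74 and 52 non-resident cells fill the corner below 15 and below 10, and the cells just inside the resident limit pass without a gap into the 130 and 65 resident-type cells.

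Cells lay close to the limits on both sides. The member with the lowest C1q sum had 32.8 per 10000 and the nearest cell below the limit 27.1. The member with the highest resident sum had 14.9 and the nearest cell outside 15.9, and 26 members lay within 20% of that limit against 12 cells just outside it. At the lipid limit these values were 8.87 and 10.1, with 2 members and 7 outside cells within 20%. The resident limit therefore decides more memberships than the others.

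Within the members the C1q sum had a median of 89.6 and 90.7 per 10000 (range 32.8 to 182 and 35.3 to 178), against 109 and 105 in resident-type cells. The resident sum had a median of 7.80 and 6.63, with 5 and 9 members at 0, against 46.7 and 53.3. The members thus carried most of the C1q of resident cells with a small remainder of the resident genes. Their lipid sum had a median of 2.63 and 3.05.

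The 3 C1q genes lie side by side on the minus strand of chromosome 4 in GRCm38, C1qb at chr4:136880129-136886187, C1qc at chr4:136889804-136893065 and C1qa at chr4:136895917-136898803. The 200 bases upstream of the transcription start of C1qb and C1qc are printed because these transcripts define the cells. The same window is printed for both starts of Mmp12, at chr9:7344381-7369499, and for Il2ra, at chr2:11642807-11693193, which headed the genes higher in the members. The sequences come from RefSeq on GRCm38.p6 and read 5′ to 3′ along the gene. Capitals mark every match, on either strand, to AGGAAG (a core bound by the macrophage factor PU.1), TGCTGA (the core of MAF recognition elements), TTCNNNGAA (STAT), TGANTCA (AP-1) or the interferon-stimulated response element (TTTC, any 2 bases, TTTC).
C1qb, chr4:136886201-136886400, minus strand: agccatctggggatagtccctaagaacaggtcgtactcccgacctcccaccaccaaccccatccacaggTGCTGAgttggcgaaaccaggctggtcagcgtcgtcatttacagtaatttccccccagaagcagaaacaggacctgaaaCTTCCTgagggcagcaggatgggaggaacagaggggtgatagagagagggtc
C1qc, chr4:136892915-136893114, minus strand: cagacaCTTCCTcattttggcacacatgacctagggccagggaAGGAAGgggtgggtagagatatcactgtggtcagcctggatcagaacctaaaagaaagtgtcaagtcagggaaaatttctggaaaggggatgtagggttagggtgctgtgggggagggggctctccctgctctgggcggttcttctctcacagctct
Mmp12, first start, chr9:7344197-7344396, plus strand: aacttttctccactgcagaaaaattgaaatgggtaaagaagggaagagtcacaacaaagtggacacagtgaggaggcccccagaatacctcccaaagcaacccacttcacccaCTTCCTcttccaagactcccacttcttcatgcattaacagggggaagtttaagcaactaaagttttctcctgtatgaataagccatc
Mmp12, other start, chr9:7347174-7347373, plus strand: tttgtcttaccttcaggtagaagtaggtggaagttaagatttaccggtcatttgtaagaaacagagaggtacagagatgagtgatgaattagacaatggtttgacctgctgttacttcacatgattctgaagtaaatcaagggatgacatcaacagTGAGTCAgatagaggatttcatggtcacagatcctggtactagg
Il2ra, chr2:11642592-11642791, plus strand: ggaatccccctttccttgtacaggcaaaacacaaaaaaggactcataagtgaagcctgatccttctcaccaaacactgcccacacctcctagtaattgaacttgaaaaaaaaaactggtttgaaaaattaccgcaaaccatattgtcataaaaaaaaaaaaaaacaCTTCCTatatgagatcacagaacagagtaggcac

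C1qb held AGGAAG 52 bases and TGCTGA 131 bases before its start, and C1qc held AGGAAG 194 and 157 bases before its start. Mmp12 held AGGAAG 87 bases before the first start and TGANTCA 44 bases before the other, and Il2ra held AGGAAG 34 bases before its start. These letters are common. AGGAAG occurred in 24.7% of 32851 windows of the same length, TGCTGA in 13.2%, TTCNNNGAA in 5.49%, TGANTCA in 5.48% and the interferon-stimulated response element in 2.27%. A match is a run of letters and not a site of binding.

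The members carried the markers of macrophages. Csf1r, the receptor of the macrophage growth factor M-CSF, was found in all 74 and 52 members at 1221 and 1349 CPM, beside 1332 and 1787 CPM in resident-type cells. Adgre1, the gene of F4/80, was found in 94.6% and 90.4% of members, Cd14, the lipopolysaccharide co-receptor, in 71 and 49, and Mertk, a receptor for dying cells, in 35 and 18. In cells of the T and B lineages, a gauge of free RNA with a median depth of 4395 and 3789 molecules, Csf1r was found in 34.4% and 26.1%, Adgre1 in 10.9% and 11.1%, Cd14 in 19.6% and 15.7% and Mertk in 2.17% and 1.52%. C1qb itself was found in 63.0% and 58.7% of those lymphoid cells, so a molecule of C1qb alone does not mark a macrophage here. The label of macrophage held by these markers.

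Of 17 core macrophage genes 0 lay past 2-fold against resident-type cells in both pools. Over all 7513 genes compared, 1.09% lay past 2-fold higher and 1.96% lower, so 0 of 17 is near that share. The median log2 ratio of the core genes was 0.03 and 0.23, beside 0.07 and 0.02 over all genes compared. Ratios in this text are of summed molecules over each class total. Among the markers proposed for these cells, the invariant chain Cd74 stood at 15643 and 18917 CPM (resident-type 16598 and 17669) and the class II chain H2-Eb1 at 6272 and 6650 CPM (6717 and 6601). Cd14 stood at 1119 and 1513 CPM (1142 and 1257). None of the 3 differed by 2-fold from resident-type cells, and C1qa, C1qb and C1qc were slightly lower in the members. C1qa stood at 1748 and 1744 CPM against 2177 and 2234, a log2 ratio of -0.32 (95% counting interval -0.40 to -0.23) and -0.36 (-0.49 to -0.22). C1qb stood at 4237 and 4494 CPM against 4883 and 4814, and C1qc at 2685 and 2904 CPM against 3499 and 3559.

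Markers of other cell types were low in most members. The monocyte list summed to a median of 8.10 and 5.50 per 10000 (resident-type 5.11 and 6.96), with Ly6c2, a surface marker of classical monocytes, in 11 and 8 members, and Treml4, of non-classical monocytes, at 0 molecules. The dendritic list summed to a median of 2.00 and 1.86, and its defining genes Flt3, Zbtb46 and Xcr1 had 9 and 5, 5 and 5, and 4 and 1 molecules in all members. T-lineage genes had a median of 1.65 and 1.26, and B-lineage, natural killer and endothelial genes a median of 0 in both pools. Fibroblast genes had a median of 10.1 and 9.78, and smooth muscle genes of 6.60 and 6.96. 10 and 7 members reached 20 per 10000 for some other lineage. The furthest was a cell of the pool labelled wild-type with 1752 per 10000 of plasma cell genes, 4538 molecules of the immunoglobulin light chain Igkc and a C1q sum of 69.2. The next cell of that pool had 60.8 for plasma cell genes.

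The members differed from resident-type macrophages in a small share of all genes. Past 2-fold in the same direction in both pools were 82 genes higher (1.09%) and 147 lower (1.96%) of the 7513 genes with at least 50 molecules. In 1 pool taken alone, 247 (3.29%) and 466 (6.2%) were past 2-fold higher and 281 (3.74%) and 666 (8.86%) lower. Against lipid-laden cells these were 122 higher (2.22%) and 90 lower (1.64%) of 5503 genes, and against C1q-low myeloid cells 181 higher (2.72%) and 236 lower (3.54%) of 6666. The classes differ in cell number and total molecules, so the counts of these comparisons are not on equal terms. They are given with their background only.

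**Figure D2:**
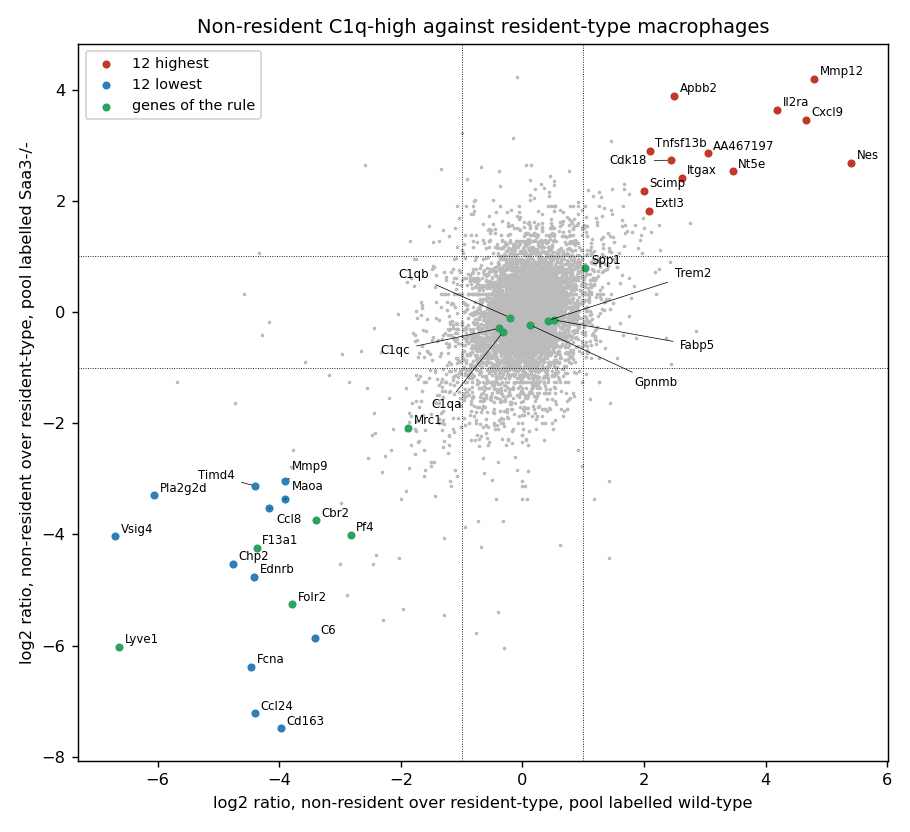
Each point is a gene, placed by its log2 ratio of members over resident-type macrophages in the pool labelled wild-type (x axis) and in the pool labelled Saa3-/- (y axis), with the rule genes and the 12 highest and 12 lowest other genes coloured. Mmp12 lies at 4.80 and 4.20, Il2ra at 4.19 and 3.64, and Cd163 at -3.98 and -7.49.

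The 12 highest genes against resident-type cells were Mmp12, Il2ra, Cxcl9, AA467197, Nes, Nt5e, Apbb2, Cdk18, Itgax, Tnfsf13b, Scimp and Extl3, genes of varied function. Mmp12, the macrophage elastase that degrades elastin, had 219 molecules in 21 of 74 members and 138 in 12 of 52, 255 and 339 CPM, against 8.86 and 17.6 CPM in resident-type cells. The log2 ratio was 4.80 (4.09 to 5.71) and 4.20 (3.30 to 5.43). A molecule of Mmp12 was thus found in 28.4% (18.5 to 40.1) and 23.1% (12.5 to 36.8) of members, which is not the share that expresses it, with 51 and 48 molecules in the highest cell. Resident-type cells had it in 8.46% and 9.23% and T and B cells in 3.26% and 4.56%. Lipid-laden cells stood above the members at 526 and 647 CPM, so the gene separated members from resident-type cells and not from lipid-laden ones.

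Il2ra, the alpha chain of the interleukin-2 receptor better known from regulatory T cells, had 69 molecules in 13 members and 44 in 9, 80.3 and 108 CPM, against 4.13 and 7.81 CPM in resident-type cells. The log2 ratio was 4.19 (3.16 to 5.65) and 3.64 (2.33 to 5.73). Of members 17.6% and 17.3% had it, against 24.3% and 14.2% of T and B cells, where the level was 152 and 72.8 CPM. The members' share and level were thus the lower ones under the wild-type label and the higher ones under the Saa3-/- label. T-lineage RNA was read in members with and without Il2ra. Members with Il2ra had a median T-lineage sum of 2.02 and 1.26 per 10000 against 1.57 and 0.983 in those without. A Cd3 molecule was found in 7 of 13 and 2 of 9 of the former and in 16 of 61 and 9 of 43 of the latter. The members with Il2ra were also deeper, with a median of 13109 and 7921 molecules against 8814 and 7186, and the part of T-cell RNA in the Il2ra level was not tested.

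Itgax, the integrin chain of CD11c that dendritic cells and many inflammatory macrophages carry, had 210 and 116 molecules in 33 and 28 members. The level was 244 and 285 CPM against 39.6 and 52.7 CPM, a log2 ratio of 2.62 (2.22 to 3.05) and 2.41 (1.82 to 3.09). Lipid-laden (678 and 463 CPM) and C1q-low myeloid cells (307 and 357 CPM) stood at or above the members, so resident-type cells were the low class. Tnfsf13b, the B-cell survival factor BAFF, had 68 and 50 molecules in 28 and 25 members, 79.1 and 123 CPM against 18.3 and 15.6 CPM, a log2 ratio of 2.10 (1.48 to 2.77) and 2.90 (1.89 to 4.26). The gene AA467197 had 199 and 112 molecules in 30 and 29 members, 232 and 275 CPM against 27.7 and 37.1 CPM, a log2 ratio of 3.05 (2.60 to 3.55) and 2.86 (2.18 to 3.67). Among the 12 highest genes these were the ones spread over the most members.

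Nes, the intermediate filament nestin known from neural progenitors, had 161 and 48 molecules in 25 and 14 members, 187 and 118 CPM against 4.13 and 17.6 CPM. Its log2 ratio was 5.41 (4.43 to 6.84) and 2.68 (1.70 to 3.96). Nt5e, the ectoenzyme CD73 that makes adenosine, had 54.7 and 27.0 CPM against 4.72 and 3.90 CPM. Scimp, an adaptor of Toll-like receptor and MHC class II signals, had 54.7 and 56.4 CPM against 13.6 and 11.7 CPM. Nes was present in both pools at a level well above resident-type cells, with fewer molecules behind it in the pool labelled Saa3-/-.

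Cxcl9, the interferon-gamma induced chemokine, ranked high through very few cells. It had 96 molecules in 4 members and 30 in 1 member, with 47 and 30 in the highest cell. Its level of 112 and 73.6 CPM is that of those cells and not of the members at large. Apbb2 stood at 51.2 and 71.1 CPM against 8.86 and 3.90, Cdk18 at 52.4 and 44.2 CPM against 9.45 and 5.85, and Extl3 at 88.4 and 71.1 CPM against 20.7 and 19.5. When every cell was thinned to 2000 molecules, Mmp12 stood at 0.92 in the pool with the smaller log2 ratio, and Tnfsf13b (0.38) and Extl3 (0.69) also came under 2-fold.

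**Figure D3:**
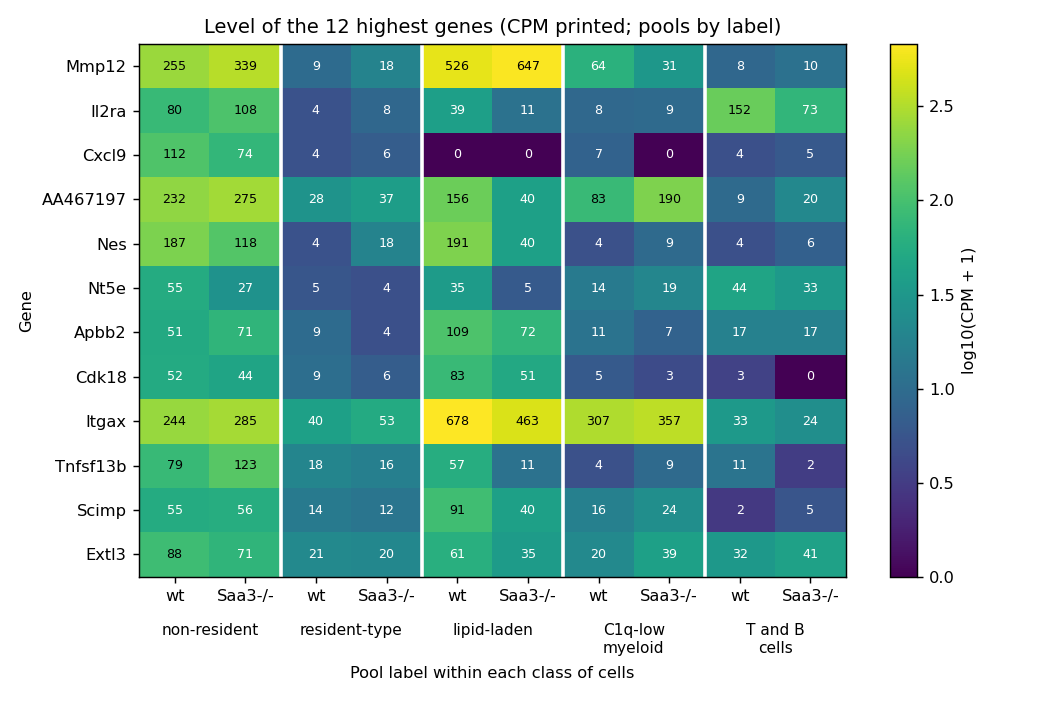
Rows are the 12 genes with the highest smaller ratio of members over resident-type macrophages, columns the classes by pool label, and colour the level as log10(CPM + 1) with the CPM printed. Mmp12 and Itgax are also high in lipid-laden cells and Il2ra in T and B cells, whereas resident-type cells are low for all 12 genes.

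The 12 lowest genes had few molecules in the members, most of them 5 or fewer in each pool. Cd163, the haemoglobin scavenger receptor, had 18 and 1 molecules, 20.9 and 2.45 CPM, against 573 and 338 molecules, 338 and 660 CPM, in resident-type cells. The log2 ratio was -3.98 (-4.78 to -3.34) and -7.49 (-13.38 to -5.58). Ccl8, a chemokine of resident macrophages, had 50 and 15 molecules, 58.2 and 36.8 CPM against 1056 and 439 CPM, a log2 ratio of -4.17 (-4.62 to -3.78) and -3.53 (-4.44 to -2.82). Ednrb, the endothelin B receptor, had 5 and 2 molecules against 230 and 85, a log2 ratio of -4.41 (-6.18 to -3.30) and -4.77 (-8.15 to -3.18). These 3 genes did not enter the rule, but the members were selected on low levels of other resident genes of the same cells.

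Timd4, the phosphatidylserine receptor of self-renewing resident macrophages, had 2 and 2 molecules in the members against 103 and 27 in resident-type cells. The complement receptor Vsig4 had 0 and 2 against 102 and 51, at least 17.3-fold lower in the pool labelled wild-type, with 50 of the 51 molecules of the other pool in 1 cell. The lectin Fcna had 2 and 0 against 108 and 52, at least 13.8-fold lower in the pool labelled Saa3-/-. The phospholipase Pla2g2d had 0 and 1 against 65 and 18, and the terminal complement component C6 3 and 0 against 73 and 36. Chp2, Ccl24, Maoa and Mmp9 had 1 and 0, 1 and 0, 1 and 1, and 3 and 1 molecules in the members, and 80 and 14, 62 and 93, 44 and 19, and 103 and 15 in resident-type cells. Ccl24, with a log2 ratio of -4.40 in the pool with the smaller one, stood at -0.57 with a resident limit of 20 per 10000. Several of these ratios rest on 0 to 3 molecules in the members. A bound against 0 is set at 3 molecules.

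The genes used to exclude resident cells were not all at the floor. Lyve1, the hyaluronan receptor, had 3 and 3 molecules against 684 and 286. F13a1, coagulation factor XIII, stood at 52.4 and 63.8 CPM against 1096 and 1225, Cbr2 at 107 and 85.9 against 1135 and 1167, Folr2, the folate receptor beta, at 52.4 and 14.7 against 729 and 611, and Pf4 at 116 and 61.3 against 828 and 1009. Mrc1, the mannose receptor CD206, was the highest of them in the members, at 368 and 444 CPM against 1356 and 1883. Mrc1 thus made up most of the resident sum that members kept.

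Of 23 further resident genes 21 were compared. In both pools 0 were past 2-fold higher and 15 lower, beside 1.09% and 1.96% of all genes compared. Their median log2 ratio was -1.76 and -2.63. Selenop, the selenium carrier, stood at 1462 and 1646 CPM against 4944 and 4968, a log2 ratio of -1.76 and -1.59. Gas6, the bridging ligand of the TAM receptors, stood at 66.3 and 56.4 CPM against 331 and 423, and the transcription factor Maf at 201 and 118 CPM against 497 and 636. The lectin Clec10a had a log2 ratio of -2.41 and -4.37, and the chemokine Ccl6 of -1.38 and -1.64. Dab2, an endocytic adaptor, differed little (-0.46 and -0.38), and Igf1, insulin-like growth factor 1, less (-0.13 and -0.14). Most genes of the list were thus low along with the resident genes of the rule.

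Complement genes other than C1q were lower or similar. Of 12 compared of 14 listed, 0 were past 2-fold higher and 5 lower in both pools, beside 1.09% and 1.96% of all genes compared. The median log2 ratio was -1.13 and -0.80. C4b, a component activated by C1q-bound proteases, stood at 24.4 and 66.2 CPM against 351 and 466, a log2 ratio of -3.81 and -2.79. Properdin, Cfp, had a log2 ratio of -0.93 and -0.88. C3 (-0.05 and -0.31) and the C3a receptor C3ar1 (-0.29 and -0.05) were close to resident-type cells.

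Genes shared with microglia, the macrophages of the brain, were uneven. Of 9 compared of 11 listed, 3 were past 2-fold higher and 3 lower in both pools, beside 1.09% and 1.96% of all genes compared. The median log2 ratio was 1.13 and 0.46. Cx3cr1, the fractalkine receptor at chr9:119901616-120069879, stood at 272 and 294 CPM against 96.8 and 115, a log2 ratio of 1.49 (1.20 to 1.79) and 1.35 (0.89 to 1.83). It was found in 63.5% and 59.6% of members, 40.8% and 40.0% of resident-type cells and 7.61% and 7.09% of T and B cells. The TGF-beta receptor Tgfbr1 stood at 326 and 446 CPM against 99.2 and 162 (1.71 and 1.46). The purinergic receptors P2ry12 (-1.12 and -1.47) and P2ry13 (-1.87 and -1.82) and the lysophospholipid receptor Gpr34 (-1.50 and -1.83) were lower. Siglech had 1 and 2 molecules and Sall1, the defining factor of microglia, 0 in both pools, so the list was shared only in part. At equal depth Cx3cr1 (0.78) and Tgfbr1 (0.73) were under 2-fold in the pool with the smaller ratio.

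Of 19 lipid-handling genes compared outside the rule, 3 were past 2-fold higher and 1 lower in both pools against resident-type cells. Over all genes compared these shares were 1.09% and 1.96%. The median log2 ratio of the 19 was -0.04 and 0.17. Cd9, a tetraspanin of lipid-associated macrophages, stood at 357 and 319 CPM against 82.7 and 117 (2.11 and 1.44). The membrane protease Mmp14 stood at 222 and 199 CPM against 71.4 and 62.4 (1.64 and 1.66), and the cholesterol exporter Abcg1 had a log2 ratio of 1.21 and 0.95. The scavenger receptor Cd36 stood at 128 and 56.4 CPM against 394 and 443 (-1.62 and -2.95), and Apoe, apolipoprotein E, at 3578 and 5970 CPM against 8357 and 9942 (-1.22 and -0.74). Cd9, Mmp12 and Mmp14 were thus high while Cd36 and Apoe were low. Against the lipid-laden cells the median over 22 genes was -1.15 and -1.64. In both pools 0 were higher and 21 lower, 10 of them past 2-fold, beside 1.64% of the 5503 genes compared. The rule removed Trem2-, Gpnmb-, Spp1- and Fabp5-high cells, which fixes that direction.

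MHC class II genes stood at like levels in members and resident-type cells. Of 9 compared of 10 listed 0 were past 2-fold higher and 1 lower in both pools, beside 1.09% and 1.96% of all genes compared. The median log2 ratio was -0.12 and -0.04, and H2-Ab1 stood at 8480 and 9431 CPM against 9153 and 9696. Against the lipid-laden cells the median was 1.19 and 0.97 over 8 genes. In both pools 2 were past 2-fold higher, beside 2.22% of the 5503 genes compared.

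Inflammatory genes differed singly and not as a list, with a median of 0.20 and -0.16. In both pools 1 of 24 was past 2-fold higher and 1 past 2-fold lower, beside 1.09% and 1.96% of all genes compared. Il1rn, the interleukin-1 receptor antagonist, stood at 270 and 216 CPM against 83.2 and 72.2 (1.70 and 1.57), and Cxcl16, a scavenger receptor and chemokine, at 690 and 903 CPM against 393 and 423 (0.81 and 1.09). Il1b, interleukin-1 beta, stood at 273 and 383 CPM against 172 and 299 (0.67 and 0.36), so the ratio of the antagonist was above that of the cytokine in both pools. The monocyte attractants Ccl7 (-1.30 and -1.95) and Ccl2 (-0.63 and -1.58) were lower. Tnf (1.03 and -0.21), Ccl3 (1.09 and -0.20) and Ptgs2 (2.45 and -0.94) had ratios of opposite sign in the 2 pools. For them the pools give no common direction.

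MHC class II differed far more among the members than between classes. The summed level per cell had its lowest value at 19.4 and 26.3 per 10000, its median at 421 and 461 and its highest value at 1257 and 1265. Below 100 per 10000 were 18 of 74 members, 24.3% (15.1 to 35.7), and 16 of 52, 30.8% (18.7 to 45.1), while 47 (63.5%) and 29 (55.8%) reached 300 and only 9 and 7 lay between. By these limits, chosen after the values were seen, the members held an MHC class II-low and an MHC class II-high set in both pools. Resident-type cells were split alike, with a median of 446 and 451 and 23.8% and 29.2% below 100, and of the lipid-laden cells 61.1% and 48.4% were below 100.

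**Figure D4:**
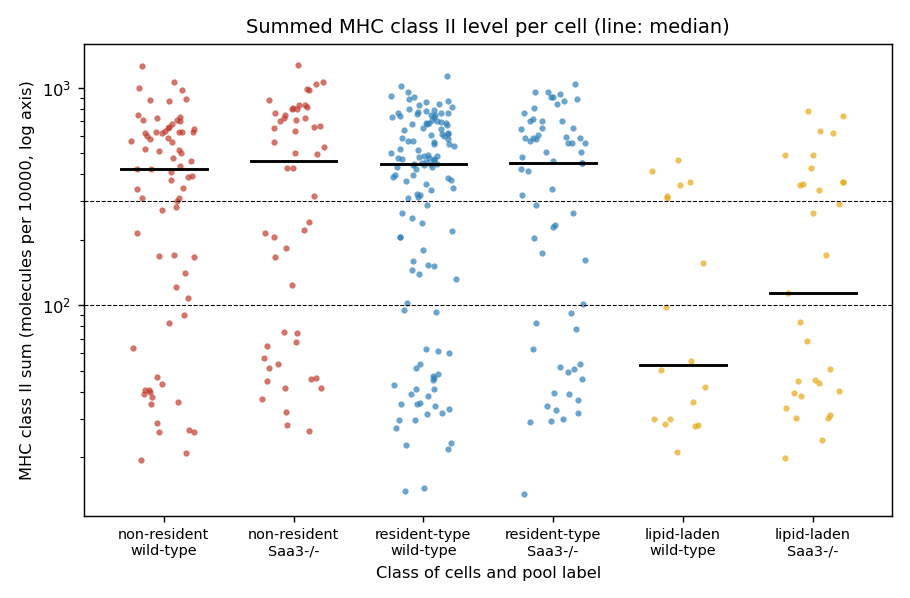
Each point is a cell, with its summed MHC class II level in molecules per 10000 on a log axis, by class and pool label. Members reach from 19.4 to 1257 and from 26.3 to 1265, with 9 and 7 cells between 100 and 300.

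The members low and high in MHC class II differed in further genes. Of 3731 genes compared, 87 were past 2-fold higher (2.33%) and 65 lower (1.74%) in the low set in both pools. The lower ones include Cd74, H2-Aa, H2-Ab1, H2-Eb1, H2-DMa and H2-DMb1, whose direction the split itself fixed. The other genes named here were chosen after their values were seen. Pdpn, podoplanin, stood at 187 against 15.4 CPM in the low and high set of the pool labelled wild-type and at 230 against 35.9 CPM in the other (log2 ratio 3.53 and 2.62). Nes stood at 451 against 102 and 202 against 26.9 CPM (2.14 and 2.83), and Pmepa1, a TGF-beta target, at 504 against 147 and 699 against 220 CPM (1.78 and 1.66). Igf1 stood at 691 against 203 and 809 against 152 CPM (1.77 and 2.40). Nestin, one of the 12 highest genes of all members, was thus higher in the low than in the high set in both pools. In the pool labelled Saa3-/- the low and high sets held 22 and 6 of its molecules, in 6 and 5 cells. The rest of its molecules in that pool lay in the 7 members between these sets. Their level was not compared, so a concentration of nestin in the low set is not shown there.

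Lower in the low set was Ccr2, the receptor that draws monocytes from blood, at 134 against 492 and 46.0 against 785 CPM (-1.85 and -3.96). The secreted protein Retnla stood at 62.4 against 774 and 27.6 against 758 CPM (-3.58 and -4.56), and the chemokine Ccl6 at 110 against 870 and 82.8 against 825 CPM (-2.95 and -3.24). Il1b had 9 and 0 molecules in the low set and 215 and 132 in the high set. The lectin Clec4b1 had 0 and 0 against 46 and 20. The set with more Ccr2, Il1b and Retnla was thus the one high in MHC class II. Resident-type cells split in the same way gave ratios of the same direction for Ccr2 (-3.97 and -3.99), Retnla (-4.82 and -1.50) and Il1b (-1.59 and -1.37). So did Clec4b1 (-2.83 and -1.86), Pmepa1 (0.84 and 1.04) and Igf1 (0.15 and 1.52), while Ccl6 differed less (-0.33 and -0.53). Pdpn went the other way (-0.87 and -2.31), on 2 and 1 molecules in the low set. Nes had 0.14 and -1.01, on 1 molecule in each low set. The split was thus shared only in part. In the members C1qa (0.48 and 0.03), C1qb (0.14 and 0.30) and C1qc (0.45 and 0.19) differed little, Tgfbr1 (1.07 and 1.40) was higher in the low set, and Cx3cr1 had ratios of 1.09 and 0.34.

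Over single members the MHC class II sum had a rank correlation of -0.49 and -0.38 with the microglia-shared sum, 0.42 and 0.36 with the core macrophage sum and -0.05 and -0.11 with the C1q sum (74 and 52 cells). These describe cells of 1 library that share its depth, in which class II molecules are part of the total all sums are divided by. Of the 3 relations the one with C1q was the weakest.

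Between pools, the members of the pool labelled Saa3-/- had 44 genes past 2-fold higher (1.03%) and 104 lower (2.43%) than those of the pool labelled wild-type, of 4282 compared. With the whole counting interval past 2-fold these were 5 (0.117%) and 17 (0.397%). In the resident-type cells they were 128 (2.14%) and 120 (2.01%) of 5982 genes, or 13 (0.217%) and 28 (0.468%). Genotype, mice and handling of the pool cannot be told apart. By the strict count the share in the members was below that in resident-type cells, which had more molecules to count.

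**Figure D5:**
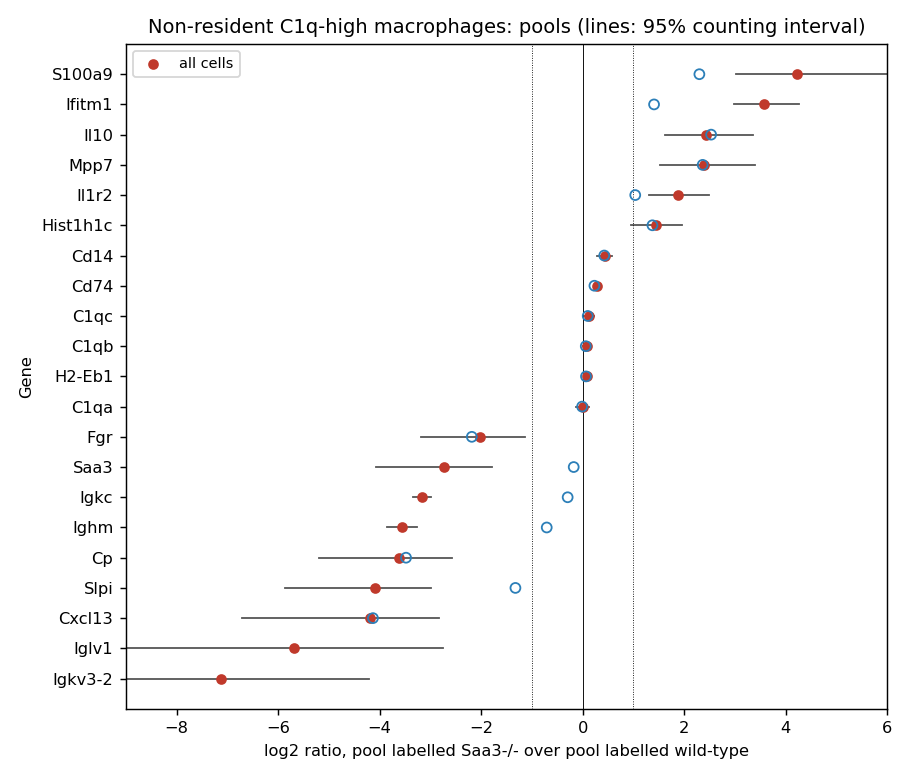
Red points give the log2 ratio of Saa3-/- label over wild-type label in the members for named genes, lines the 95% counting interval, and open circles the ratio without the highest cell of each gene in each pool. Saa3 moves from -2.74 to -0.18 without that cell.

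Saa3 in the members had 119 molecules in 14 cells and 8 molecules in 7 cells, 138 and 19.6 CPM, a log2 ratio of -2.74 (-4.06 to -1.79). A single cell held 104 of the 119, and without the highest cell of each pool the ratio was -0.18. The members thus hardly carried Saa3 apart from that cell. In resident-type cells it had 788 and 23 molecules, 465 and 44.9 CPM.

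Several of the widest differences between pools also rested in large part on 1 cell. Igkc had 5163 and 273 molecules, 4538 of the former in the plasma-gene cell described above, and Ighm, the immunoglobulin M heavy chain, 2409 and 97, 2101 of them in 1 cell. Igkv3-2 had 146 molecules, 145 of them in 1 cell, against 0, and Iglv1 54, all in 1 cell, against 0. Slpi, a protease inhibitor, had 198 and 5 with 180 in 1 cell, and among the genes higher under the Saa3-/- label S100a9 had 5 and 48 with 38 in 1 cell, Ifitm1 25 and 143 with 119, and Il1r2 40 and 70 with 36. Without the highest cell of each pool the log2 ratio was -0.30 for Igkc and -0.71 for Ighm, both under 2-fold. It was -1.33 for Slpi, 2.30 for S100a9, 1.41 for Ifitm1 and 1.03 for Il1r2, smaller but still past 2-fold. With a resident limit of 10 per 10000 Slpi stood at -0.83.

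Other differences were spread over cells. Cxcl13, the B-cell attracting chemokine, had 135 molecules in 17 members and 3 in 3 members, 157 and 7.36 CPM, a log2 ratio of -4.20 (-6.71 to -2.84). Resident-type cells carried more of it, 1253 and 91.7 CPM, with a ratio in the same direction (-3.76). Cp, the ferroxidase ceruloplasmin, had 167 molecules in 33 members and 6 in 6 (-3.61), and 893 and 81 in resident-type cells. Cp was chosen after its values were seen. Both genes were thus lower in the pool labelled Saa3-/- in members and resident-type cells alike.

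Il10, the anti-inflammatory cytokine, had 17 molecules in 11 members and 44 in 8 members, 19.8 and 108 CPM, a log2 ratio of 2.42 (1.61 to 3.35). In resident-type cells it stood at 83.8 and 111 CPM (0.42). The members labelled Saa3-/- therefore stood at the resident-type level and the members labelled wild-type below it. The polarity gene Mpp7 had 15 molecules in 12 members and 38 in 10 (2.39, 1.52 to 3.39), and the linker histone gene Hist1h1c 60 in 31 and 78 in 17 (1.45, 0.95 to 1.96). At equal depth Hist1h1c stood at 0.64, under 2-fold. Cd14 differed by 0.44 (0.29 to 0.58), Cd74 by 0.27 (0.23 to 0.31), H2-Eb1 by 0.08 and Apoe by 0.74 (0.66 to 0.82).

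Interferon-stimulated genes were lower in the members labelled Saa3-/-. Of 16 compared, 0 were past 2-fold higher and 6 lower, beside 1.03% and 2.43% of all 4282 genes. A ratio below 0 was found for 15 of the 16, beside 2184 of the 4282. The median was -0.64, beside -0.01 over all 4282 genes. Rsad2, an antiviral enzyme, had 97 and 8 molecules in 15 and 5 members, 113 and 19.6 CPM, with 56 of the former in 1 cell. Irf7, the regulator of type I interferon, had 129 in 36 members and 25 in 14, 150 and 61.3 CPM. Oas1a, an RNA sensor, had 42 in 29 and 4 in 4, and Ifit2 58 in 10 and 5 in 3 with 31 in 1 cell. The difference was thus spread over cells for Irf7 and Oas1a and concentrated for Ifit2 and Rsad2. Per cell, the summed level had nearly the same median in both pools, 18.7 and 16.4 per 10000, with the highest cell at 163 and 101. In resident-type cells, with a median of 29.2 and 32.4, the median ratio of 19 genes was 0.05. Past 2-fold higher were 0 and lower 1, beside 2.14% and 2.01% of all 5982 genes compared there. With every cell thinned to 2000 molecules the median was -0.15. There the members were chosen anew, and only list genes that still reached 50 molecules counted. Without thinning, the list genes with at least 200 molecules gave -0.20, so the thinned value cannot isolate depth. The members differed in depth between pools (9308.5 and 7308.5 molecules), and the part of depth in the difference was not tested.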

How the data were processed

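Cells of the aortic arch were analysed from deposited tables of counts of molecules per cell and gene, 1 table per sample tag. Per the file headers, the authors made these counts with the BD Rhapsody pipeline 1.11.1 on GRCm38 with GENCODE release 19. Which tag is which genotype comes from the table names. Of 2401 putative cells, 11 multiplets and 647 undetermined by tag are not in the count tables; no doublet caller was run, and a filter on markers of other lineages served as an alternative. The 4 bone-marrow-derived macrophage samples were not analysed here.

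Cells above 25% mitochondrial molecules were left out, and classes followed the limits in the text. C1q-low myeloid cells had a C1q sum under 10, Lyz2, Tyrobp and Fcer1g together at least 20, and Cd3d, Cd3e, Cd79a and Cd79b under 2 per 10000. T and B cells had at least 10 per 10000 of those last 4 genes. Counts were summed per class and pool, divided by the class total (CPM) and set against each other as log2 ratios, 0.5 molecule being added to each sum, for genes with at least 50 molecules. Intervals are exact 95% binomial, treat molecules as independent although they share cells, and are therefore too narrow. With 1 pool per genotype no test was made. Python 3.11.15, numpy 2.4.6, pandas 2.3.3, scipy 1.17.1 and matplotlib 3.10.9 were used, with edgeR 4.0.16 for TMM scaling as an alternative. The ratio functions were tested on simulated data.

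The members and lists were chosen with earlier results of these data known. Genes named are those of the rule, the proposed markers and Saa3, the 12 highest and 12 lowest against resident-type cells by the smaller ratio of the 2 pools, the 6 highest and 6 lowest between pools by the interval end nearest 0, and up to 4 genes per list by molecules. Any other gene named, further list genes included, was chosen after its values were seen. Positions come from GENCODE release 21. Some members of the lists are not reported here by name.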

Additional observations from a re-analysis of the deposited data

How the results depend on the processing

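The members' share of kept cells, 8.88% and 6.32%, was 6.12% and 4.62% with a resident limit of 10 per 10000, 6.36% and 4.74% with a lipid limit of 5, and 19.7% and 16.9% with cells of other lineages left out, which shrinks the denominator. Thinned to 2000 molecules per cell it was 6.27% in the pool labelled wild-type. The 82 genes higher and 147 lower than in resident-type cells were 16 and 43 after thinning, 135 and 243 at a minimum of 20 molecules and 29 and 52 at 200, and 79 lower with a pseudocount of 5. Between pools the 44 higher and 104 lower were 1 and 9 after thinning, 253 and 337 at 20 molecules and 3 and 9 at 200. The higher ones were 67 with a resident limit of 20 and 72 with a lipid limit of 5, and the lower ones 159 with each cell weighted the same and 43 with a pseudocount of 5. Averaged over pools, the median of further resident genes was -1.49 after thinning, that of lipid genes 0.25 with a lipid limit of 20, that of complement genes -0.55 and of microglia-shared genes 1.34 at 200 molecules. The MHC class II median, -0.08, was -0.23 and 0.13 with resident limits of 10 and 20, 0.14 and -0.14 with lipid limits of 5 and 20, -0.24 without other lineages, 0.022 thinned, 0.047 with cells weighted the same and 0.0038 with cells of any lipid sum, so its sign is not fixed. Between pools the interferon median was -0.15 thinned and -0.20 at 200 molecules, and the inflammatory median 0.43 with a lipid limit of 5. With 1 limit of 200 for MHC class II, 50 genes were higher in the low set. S100a9 against resident-type cells was -0.37 without other lineages, and Igkc between pools 0.13 with a resident limit of 10 and 0.28 thinned. Removing the highest cell of each gene and the MHC limits of 100, 300 and 200 were chosen after seeing the data. Without the highest cell, 36 genes were higher and 146 lower between pools. Of the values of named genes 1550 stayed near the main value, 396 moved and 3 reversed. Thinning leaves fewer molecules per gene, so fewer genes reach the minimum of 50. Classes were also drawn anew from the thinned counts.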

Other observations

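Genes of iron and haem handling were lower or similar in the members relative to resident-type macrophages. In both pools 0 of 9 were past 2-fold higher and 3 lower, beside 1.09% and 1.96% of all genes compared. The median log2 ratio was -0.89 and -0.44. Hmox1, the haem oxygenase that releases iron from haem, stood at 230 and 125 CPM against 781 and 492 (-1.76 and -1.96), and Blvrb, which acts on the product of that reaction, at 61.7 and 51.5 CPM against 143 and 142. Fth1, the ferritin heavy chain, had ratios of 0.38 and 0.57. Ftl1, the ferritin light chain, stood at 3698 and 3763 CPM against 4527 and 3438.

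Genes of the uptake of dying cells were uneven, with 1 of 15 past 2-fold higher and 4 lower in both pools. Over all genes compared these shares were 1.09% and 1.96%. The lower ones were Cd163, Timd4, Gas6 and Cd36. Of these Cd163, Timd4 and Gas6 are also among the further resident genes, and the members were selected on low levels of other resident genes. Havcr2, the phosphatidylserine receptor TIM-3, stood at 83.8 and 137 CPM against 33.1 and 37.1 (1.34 and 1.86), and the TAM receptor Axl had ratios of 0.94 and 0.73. Mertk, the TAM receptor of resident macrophages, had ratios of -0.55 and -0.63. Among 12 proliferation genes 0 were past 2-fold in the same direction in both pools, beside 1.09% higher and 1.96% lower over all genes compared. Mki67, a marker of cycling cells, stood at 89.6 and 145 CPM against 119 and 70.2, and Top2a, a topoisomerase of dividing cells, at 67.5 and 83.4 CPM against 91.5 and 23.4, so their ratios had opposite signs in the pools. Mki67 was found in 25 of 74 and 9 of 52 members, with 18 and 39 molecules in the highest cell. Ctss, the cathepsin that trims the invariant chain, stood at 2933 and 3856 CPM against 2324 and 2523, and Mpeg1, perforin-2, at 1048 and 1406 CPM against 700 and 669.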
